A study of Mus musculus with 12 samples.

Results

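The glutathione and antioxidant genes of the lens are described here in 4 genotypes of mouse. Members are picked by a rule on gene symbols: the glutathione S-transferases, glutathione peroxidases, peroxiredoxins, thioredoxins and their reductases, glutaredoxins and superoxide dismutases, together with named genes of glutathione synthesis and of the NRF2 response. The rule found 41 genes among the 8676 analysed. Nqo1, Gstp3, Sod3, Glrx and the microsomal transferases Mgst1, Mgst2 and Mgst3 matched the intended families but are not among the genes analysed here.

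RNA from whole lenses of C57BL/6J mice at postnatal day 7 was sequenced, with 3 libraries per genotype and 6 pooled lenses per library. WT lenses carry the normal Epha2 gene, which encodes a receptor tyrosine kinase of lens cell membranes. EPHA2-Q722 lenses are homozygous for a CRISPR/Cas9 knock-in that puts glutamine in place of arginine in the kinase domain, and EPHA2-indel722 lenses are homozygous for an in-frame insertion-deletion at the same place, which arose during the same editing in 1 founder. EPHA2-null lenses carry a plasmid insertion in exon 5 of Epha2. All 3 alleles are germline, so every cell of the animal carries them.

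Glutathione is a small thiol that the lens makes in large amounts and uses to keep its long-lived crystallins reduced. Cystine enters cells through the transporter encoded by Slc7a11, glutamate-cysteine ligase (Gclc and Gclm) and glutathione synthetase (Gss) build the tripeptide, and glutathione reductase (Gsr) regenerates it after oxidation. Peroxidases and peroxiredoxins destroy peroxides, transferases join glutathione to reactive compounds, and the transcription factor NRF2 (Nfe2l2), held in check by KEAP1, drives many of these genes in other tissues.

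Library totals ranged from 14543069 to 20340688 counts with a median of 18521249, so 1 library's floor of 3 counts corresponds to 0.147 to 0.206 CPM (counts scaled to the library total). Levels below are CPM after scaling by the trimmed mean of M values (TMM), called normalized CPM. Crystallins took 62.3% to 64.4% of counts in WT, 60.0% to 61.8% in EPHA2-Q722, 57.2% to 57.8% in EPHA2-null and 58.7% to 60.7% in EPHA2-indel722. Epha2 itself was at 56.9 ± 5.87 normalized CPM in WT, 48.9 ± 4.90 in EPHA2-Q722, 34.6 ± 3.44 in EPHA2-null and 20.7 ± 0.847 in EPHA2-indel722 (SD, n = 3). Sex-linked RNA differed between the pools: Xist, expressed from the inactive X, was at 0.177 normalized CPM in WT replicate 2 and 0.0567 in EPHA2-null replicate 1 and at 6.85 to 47.4 in the other 10 libraries, and the Y-linked Ddx3y was at 0 in EPHA2-Q722 replicate 1. The part of sex in the results was not tested; 1 member, Prdx4, is X-linked and passed in none of the 6 comparisons. All 10 lens fiber markers and all 9 lens epithelium markers checked were among the genes analysed, whereas the red blood cell (10 genes), macrophage and leukocyte (11), retinal (7) and pigmented epithelium (8) markers were not. The lens is a mixture of epithelium and fibers, and fewer cells of a type and less RNA per cell cannot be told apart in these libraries.

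The regions upstream of 3 genes are shown first, because Slc7a11 and Gstp2 had the largest folds against WT of the 41 members and Gstp1 is the close copy of Gstp2. Each line gives 250 bases before to 50 bases after the RefSeq start (GRCm38.p6), all on the minus strand: chr19:4037863-4038162 for Gstp1, chr19:4042172-4042471 for Gstp2 and chr3:50443564-50443863 for Slc7a11. Capitals mark matches, on either strand, to TGAGNNNGC, a form of the antioxidant response element, or to TGATGNAA, a core of the amino acid response element.
Gstp1: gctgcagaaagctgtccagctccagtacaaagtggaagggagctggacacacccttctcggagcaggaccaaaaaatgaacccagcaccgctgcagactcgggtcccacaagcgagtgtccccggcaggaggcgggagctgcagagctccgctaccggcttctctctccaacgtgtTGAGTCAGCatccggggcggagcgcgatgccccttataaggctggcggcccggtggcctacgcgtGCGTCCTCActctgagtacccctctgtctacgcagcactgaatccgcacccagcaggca
Gstp2: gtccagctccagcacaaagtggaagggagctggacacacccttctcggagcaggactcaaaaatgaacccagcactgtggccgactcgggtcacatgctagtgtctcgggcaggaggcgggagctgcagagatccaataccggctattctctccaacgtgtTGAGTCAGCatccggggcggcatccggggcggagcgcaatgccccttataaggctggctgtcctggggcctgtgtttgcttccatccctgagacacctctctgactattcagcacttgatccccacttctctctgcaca
Slc7a11: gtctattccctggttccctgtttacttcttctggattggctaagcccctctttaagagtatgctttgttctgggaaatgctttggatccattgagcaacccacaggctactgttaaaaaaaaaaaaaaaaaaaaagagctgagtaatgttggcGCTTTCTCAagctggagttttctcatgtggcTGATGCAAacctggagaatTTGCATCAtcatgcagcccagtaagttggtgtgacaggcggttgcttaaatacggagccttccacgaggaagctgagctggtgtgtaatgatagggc
Gstp1 and Gstp2 shared TGAGTCAGC, which also contains the AP-1 motif TGAGTCA, at positions -74 to -66 and -89 to -81 from their starts. Gstp1 had a second match, on the other strand, at -9 to -1. Their upstream regions were identical at 243 of 282 aligned bases (86.2%). Slc7a11 had TGAGNNNGC once, at -97 to -89, and TGATGNAA at -66 to -59 and again, on the other strand, at -47 to -40. RefSeq regions were found for 36 of the 41 members. Counted per gene over 27025 genes, TGAGNNNGC occurred in 9 of these 36 members and in 19.85% of all genes, and the canonical form TGACNNNGC in 8 of 36 and in 13.99% of all. TGATGNAA occurred in 1 of 36, Slc7a11, and in 4.51% of all. Over all 32851 regions, which include several starts of some genes, the shares were 17.6%, 12.4% and 3.97%. These matches describe letters only and show no binding.

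In WT lenses the members spanned nearly 3 orders of magnitude in level per kilobase of exon. Hmox1, haem oxygenase, stood highest at 908 normalized CPM per kilobase. It was followed by Gstm1, a mu-class transferase, at 191, Gpx1, the cytosolic glutathione peroxidase, at 178, and Gstp1, a pi-class transferase, at 126. Gstm5 (53.0), Gpx4, which reduces lipid peroxides (51.7), Prdx1 (45.1), Gss (40.2), Prdx2 (39.3) and Prdx5 (34.2) completed the highest 10, and Txnrd2, the mitochondrial thioredoxin reductase, was lowest at 1.24.

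**Figure D1:**
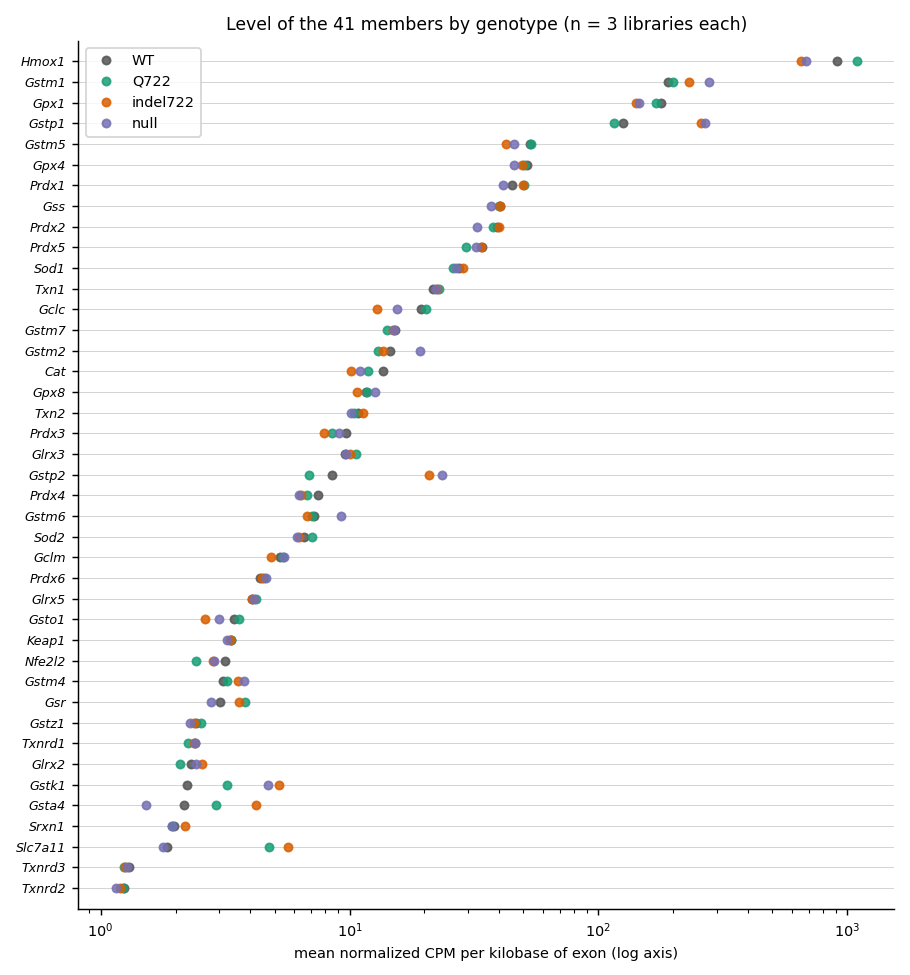
Mean normalized CPM per kilobase of exon (log axis) of the 41 members, with 1 point per genotype (n = 3 libraries each). Hmox1 is highest in WT at 908 and Txnrd2 lowest at 1.24, and the points of Gstp1, Gstp2, Gstk1 and Slc7a11 lie far apart between genotypes.

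Each mutant genotype was compared with WT, and a gene passed at an adjusted p of at most 0.05 (edgeR quasi-likelihood test, Benjamini-Hochberg over 8676 genes). In EPHA2-Q722, 1 member rose and 1 fell, where 2.75% of all genes rose and 3.62% fell. In EPHA2-indel722, 6 members rose and 6 fell (14.6% of members each way), against 6.73% and 6.37% of all genes. In EPHA2-null, 6 rose (14.6%) and 5 fell (12.2%), against 4.98% and 6.22%. With a fold change of at least 2 as well, 1 member passed in EPHA2-Q722 (0.807% of all genes), 3 passed in EPHA2-null (0.841%) and 4 in EPHA2-indel722 (1.01%), and all of these were higher. The libraries of mutant and WT did not overlap for 14 members in EPHA2-Q722 (22.4% of all genes), for 20 in EPHA2-null (28.6%) and for 14 in EPHA2-indel722 (32%). The median log2 fold change of the 41 members was -0.02 in EPHA2-Q722, -0.06 in EPHA2-null and -0.02 in EPHA2-indel722, beside 0.00, 0.01 and 0.00 over all genes. No member passed in all 3 genotypes, 9 passed in 2 of them and 7 in 1. The 3 comparisons share the WT libraries.

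**Figure D2:**
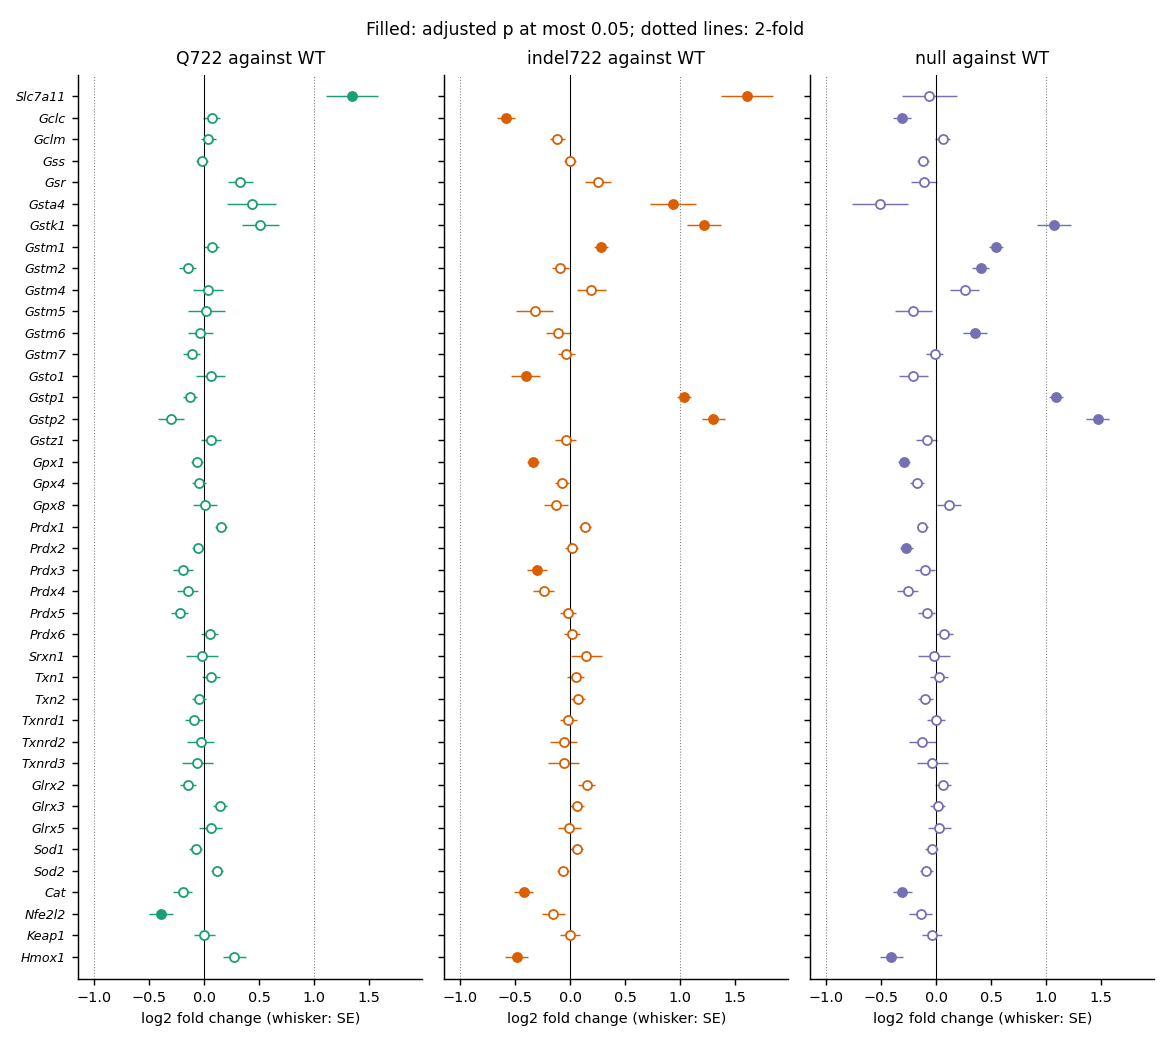
Log2 fold change against WT (whisker: SE) of all 41 members in each mutant genotype, with filled points at an adjusted p of at most 0.05 and dotted lines at 2-fold. Filled points number 2 in EPHA2-Q722, 11 in EPHA2-null and 12 in EPHA2-indel722, and the right-hand points beyond 2-fold are Slc7a11 in EPHA2-Q722, Slc7a11, Gstp2, Gstp1 and Gstk1 in EPHA2-indel722, and Gstp2, Gstp1 and Gstk1 in EPHA2-null.

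The pi-class transferases were higher in EPHA2-indel722 and EPHA2-null lenses and not in EPHA2-Q722. Both genes lie side by side on chromosome 19 (mm10, GENCODE vM21: Gstp1 at chr19:4035407-4037985 and Gstp2 at chr19:4040285-4046023). Gstp1 was at 185, 190 and 211 normalized CPM in WT, 165, 186 and 183 in EPHA2-Q722, 416, 399 and 383 in EPHA2-indel722, and 417, 431 and 402 in EPHA2-null. All 6 EPHA2-indel722 and EPHA2-null libraries exceeded all 6 of WT and EPHA2-Q722. The log2 fold change of Gstp1 against WT was 1.03 ± 0.06 (SE) in EPHA2-indel722 (adjusted p = 4.54e-11) and 1.09 ± 0.06 in EPHA2-null (adjusted p = 6.65e-11), a 2.05-fold and a 2.13-fold rise.

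Gstp2, at 8.51 normalized CPM per kilobase in WT beside 126 for Gstp1, showed the same genotypes high. It was at 9.41, 8.89 and 10.1 normalized CPM in WT, 5.88, 8.86 and 8.12 in EPHA2-Q722, 25.0, 22.8 and 22.2 in EPHA2-indel722, and 26.3, 27.0 and 25.4 in EPHA2-null. Here too the libraries of EPHA2-indel722 and EPHA2-null lay above all others, while the EPHA2-Q722 libraries lay below all WT libraries. The rise against WT was 2.46-fold in EPHA2-indel722 (log2 1.30 ± 0.10, adjusted p = 3.86e-09) and 2.77-fold in EPHA2-null (log2 1.47 ± 0.10, adjusted p = 1.21e-09). In EPHA2-Q722 the log2 fold change was -0.30 ± 0.12 (adjusted p = 0.157) for Gstp2 and -0.13 ± 0.06 (adjusted p = 0.288) for Gstp1. EPHA2-indel722 and EPHA2-null did not differ past the threshold in Gstp2 (log2 -0.17 ± 0.09, adjusted p = 0.279) or Gstp1 (-0.06 ± 0.06, adjusted p = 0.631).

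Values of Gstp2 are uncertain because the copies are near-identical. Of the windows of 1 read length along the transcripts of Gstp2, 41.5% occur in Gstp1 and 46.8% in any other gene, and of those of Gstp1 24.9% occur in Gstp2. Gstp2 counts per 100 Gstp1 counts were 4.86 ± 0.203 in WT, 4.25 ± 0.620 in EPHA2-Q722, 6.30 ± 0.0323 in EPHA2-null and 5.83 ± 0.148 in EPHA2-indel722 (SD, n = 3). The ratio in every EPHA2-indel722 and EPHA2-null library exceeded that in every WT and EPHA2-Q722 library. How ambiguous reads were shared between the copies, and the part of this in the Gstp2 values, was not tested. Within 250000 bases of Gstp2, 11 further genes were analysed and none reached a 2-fold change: Chka, a choline kinase, rose in EPHA2-null (log2 0.73, adjusted p = 8.20e-05) and in EPHA2-indel722 (0.33, adjusted p = 0.0443), and Rps6kb2, a ribosomal S6 kinase, fell in EPHA2-Q722 (-0.40, adjusted p = 0.0201) and EPHA2-null (-0.40, adjusted p = 0.0138).

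The single kappa-class transferase, Gstk1, a mitochondrial and peroxisomal enzyme, showed a similar order at a low level. It was at 3.01, 3.41 and 3.41 normalized CPM in WT, 5.43, 5.31 and 3.47 in EPHA2-Q722, 8.12, 7.00 and 7.87 in EPHA2-indel722, and 6.41, 7.56 and 6.80 in EPHA2-null. The EPHA2-Q722 libraries fell between the others, and replicate 3 lay close to WT. Gstk1 rose 2.32-fold in EPHA2-indel722 (log2 1.22 ± 0.15, adjusted p = 5.22e-06) and 2.10-fold in EPHA2-null (1.07 ± 0.16, adjusted p = 4.35e-05). The change in EPHA2-Q722 was 0.51 ± 0.17 (adjusted p = 0.0692), and without EPHA2-Q722 replicate 3 it was 0.70 (adjusted p = 0.00399).

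Among the 6 mu-class genes measured, the rises were smaller and centred on EPHA2-null. Gstm1 was at 271, 288 and 283 normalized CPM in WT, 310, 313 and 259 in EPHA2-Q722, 345, 352 and 326 in EPHA2-indel722, and 415, 398 and 416 in EPHA2-null. Its levels formed 3 tiers, with WT and EPHA2-Q722 overlapping, EPHA2-indel722 above both and EPHA2-null highest. The log2 fold change against WT was 0.28 ± 0.07 (adjusted p = 0.00548) in EPHA2-indel722 and 0.55 ± 0.07 (adjusted p = 4.62e-06) in EPHA2-null, and EPHA2-indel722 was below EPHA2-null by -0.26 ± 0.07 (adjusted p = 0.0103). This last call was lost without EPHA2-indel722 replicate 3 (-0.23, adjusted p = 0.0577).

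Gstm2 was at 24.8, 23.9 and 24.2 normalized CPM in WT and 31.5, 32.0 and 33.2 in EPHA2-null, a log2 rise of 0.41 ± 0.08 (adjusted p = 0.000763). In EPHA2-indel722 it was at 20.9, 24.0 and 23.7, below every EPHA2-null library, and EPHA2-indel722 differed from EPHA2-null by -0.50 ± 0.08 (adjusted p = 7.02e-05). Gstm6 was at 13.0, 16.4 and 13.6 in WT and 18.9, 17.7 and 18.8 in EPHA2-null, with a log2 fold change of 0.36 ± 0.11 (adjusted p = 0.0359). This call was lost without WT replicate 1 (0.28, adjusted p = 0.165), WT replicate 3 (0.30, adjusted p = 0.166) or any one EPHA2-null library (0.34 to 0.39, adjusted p 0.062 to 0.105). Gstm4, Gstm5 and Gstm7 did not pass in any of the 6 comparisons. Gstm5 spread widely within EPHA2-indel722, at 48.8, 47.4 and 66.8, and without EPHA2-indel722 replicate 3 the change of -0.49 against WT passed (adjusted p = 0.0459).

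Gsta4, an alpha-class transferase that conjugates the lipid aldehyde 4-hydroxynonenal, separated EPHA2-indel722 from EPHA2-null. It was at 2.64, 2.35 and 3.24 normalized CPM in WT, 3.23, 3.75 and 4.08 in EPHA2-Q722, 3.45, 6.66 and 5.86 in EPHA2-indel722, and 2.04, 2.07 and 1.67 in EPHA2-null. EPHA2-indel722 libraries all exceeded WT, the first only narrowly, and EPHA2-null libraries were all below WT. The log2 fold change was 0.94 ± 0.21 (adjusted p = 0.00488) in EPHA2-indel722 and -0.51 ± 0.26 (adjusted p = 0.237) in EPHA2-null, and the difference between them was 1.45 ± 0.22 (adjusted p = 0.000137). Only genes above 3 CPM in at least 6 libraries were analysed. Gsta4 met this only through its EPHA2-Q722 and EPHA2-indel722 libraries, so the filter itself favours a rise in those genotypes. Gsto1, an omega-class enzyme, was at 6.63, 7.36 and 6.87 in WT and 4.81, 4.83 and 6.26 in EPHA2-indel722 (log2 -0.40 ± 0.13, adjusted p = 0.0491). That call was lost in 8 of the 12 fits without 1 library, with adjusted p up to 0.186, the 4 exceptions being the fits without EPHA2-Q722 replicate 2 or 3, EPHA2-indel722 replicate 3 or EPHA2-null replicate 3.

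Summed over the 12 transferases, the level was 647 ± 25.8 normalized CPM in WT, 642 ± 45.0 in EPHA2-Q722, 1019 ± 15.9 in EPHA2-null and 915 ± 13.4 in EPHA2-indel722 (SD, n = 3). Gstp1 and Gstm1 held most of this sum: their means were 195 and 281 in WT, and rose to 400 and 341 in EPHA2-indel722 and to 417 and 410 in EPHA2-null. The median log2 fold change of the 12 genes was 0.08 in EPHA2-indel722 and 0.31 in EPHA2-null. Of the 12, 5 rose and 1 fell in EPHA2-indel722 (6.73% and 6.37% of all genes), 6 rose and 0 fell in EPHA2-null (4.98% and 6.22%), and 0 passed in EPHA2-Q722. Markers of pericytes and smooth muscle, of which 3 of 6 were analysed, summed to 58.3 to 86.3 normalized CPM in WT, 64.6 to 74.7 in EPHA2-Q722, 100 to 195 in EPHA2-null and 67.1 to 93.6 in EPHA2-indel722. Most of the EPHA2-null sum was Acta2, at 79.7, 89.7 and 165 in replicates 1, 2 and 3, and 0 of the 3 markers passed against WT in any genotype. The 10 lens fiber markers, most of whose counts are those of Cryaa, summed to 264014 to 287982 in WT, 244802 to 259636 in EPHA2-Q722, 198094 to 222405 in EPHA2-null and 244682 to 257933 in EPHA2-indel722, with all mutant libraries below WT. Of the 10, 5 fell in EPHA2-null. The TMM factors behind these sums were lower in every WT library (0.886 to 0.913) than in every mutant library, which raises the WT sums. The order of the sums thus rests on the scaling, and was not tested with library totals. The 9 epithelial markers, which include Epha2 itself, summed to 616 to 657 in WT, 671 to 726 in EPHA2-Q722, 616 to 648 in EPHA2-null and 621 to 639 in EPHA2-indel722. All EPHA2-Q722 libraries were above WT in this sum, and 2 of the 9 rose and 0 fell there. In EPHA2-null 2 rose and 3, Epha2 among them, fell, and in EPHA2-indel722 1 rose and 2, Epha2 among them, fell. The part of these markers in the transferase values was not tested.

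**Figure D3:**
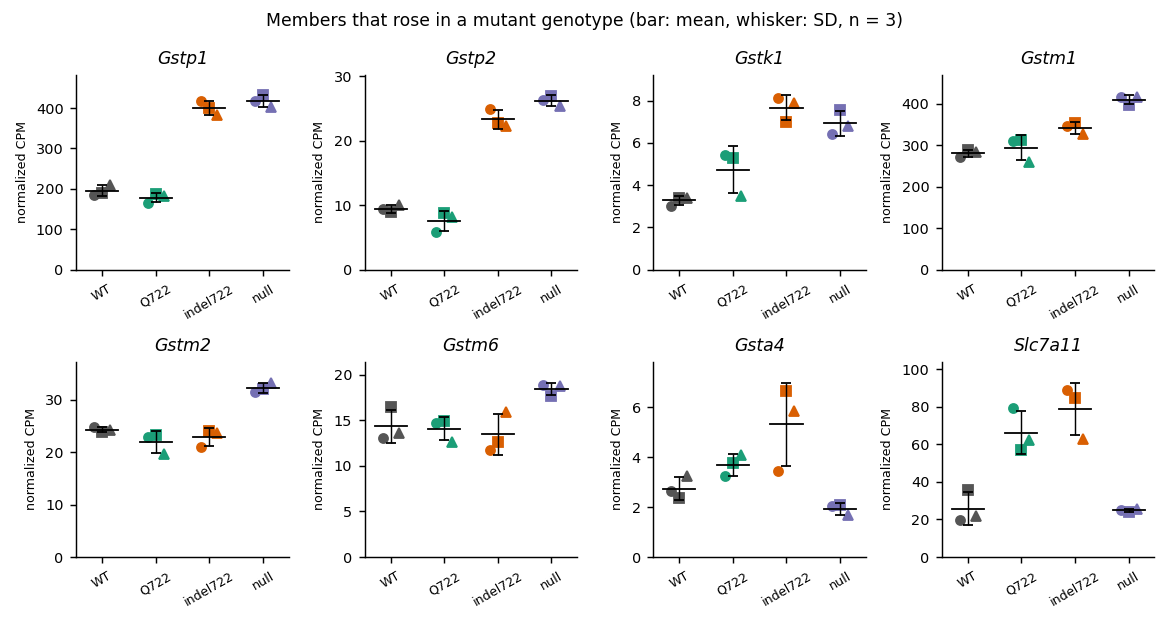
Normalized CPM of 8 members that rose in a mutant genotype, with 1 point per library (circle, square and triangle for replicates 1, 2 and 3), the mean as a bar and the SD as a whisker (n = 3). For Gstp1 and Gstp2 all EPHA2-indel722 and EPHA2-null points lie above all WT and EPHA2-Q722 points, whereas for Slc7a11 the EPHA2-Q722 and EPHA2-indel722 points lie above those of WT and EPHA2-null.

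Slc7a11, the cystine importer that feeds glutathione synthesis, followed another order: it was high in both edited genotypes, EPHA2-Q722 and EPHA2-indel722. Slc7a11 (chr3:49892526-50443614) was at 19.8, 35.6 and 21.8 normalized CPM in WT, 79.1, 56.9 and 62.4 in EPHA2-Q722, 89.0, 84.5 and 63.0 in EPHA2-indel722, and 25.2, 23.8 and 25.5 in EPHA2-null. No EPHA2-Q722 or EPHA2-indel722 library overlapped with WT, and the EPHA2-null libraries lay within the WT range. The rise was 2.55-fold in EPHA2-Q722 (log2 1.35 ± 0.24, adjusted p = 0.0108) and 3.05-fold in EPHA2-indel722 (1.61 ± 0.23, adjusted p = 0.00249), beside -0.06 ± 0.25 (adjusted p = 0.916) in EPHA2-null. EPHA2-null was below EPHA2-Q722 by -1.41 ± 0.23 (adjusted p = 0.00375) and EPHA2-indel722 above EPHA2-null by 1.67 ± 0.23 (adjusted p = 0.00224). The EPHA2-Q722 call did not hold without WT replicate 3 (1.23, adjusted p = 0.0513) or when only the 6 libraries compared were fitted (1.35, adjusted p = 0.0943).

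The other genes of glutathione supply moved differently. Gclc, the catalytic subunit of the rate-limiting ligase, was at 77.8, 64.2 and 76.1 normalized CPM in WT, 74.1, 78.2 and 76.3 in EPHA2-Q722, 52.4, 43.5 and 49.6 in EPHA2-indel722, and 54.9, 57.4 and 63.6 in EPHA2-null. EPHA2-indel722 and EPHA2-null libraries were all below WT. Gclc fell by 0.58 on the log2 scale in EPHA2-indel722 (SE 0.08, adjusted p = 1.89e-05) and by -0.31 ± 0.08 in EPHA2-null (adjusted p = 0.0116), and EPHA2-indel722 was below EPHA2-null by -0.27 ± 0.08 (adjusted p = 0.0279). The difference between EPHA2-indel722 and EPHA2-null was lost without EPHA2-indel722 replicate 2 (-0.20, adjusted p = 0.189) or 3 (-0.29, adjusted p = 0.0571), or EPHA2-null replicate 2 (-0.29, adjusted p = 0.0606) or 3 (-0.21, adjusted p = 0.113). The EPHA2-null call against WT was lost without WT replicate 1 (-0.27), WT replicate 3 (-0.29), EPHA2-null replicate 1 (-0.26) or EPHA2-null replicate 2 (-0.29), with adjusted p of 0.0554 to 0.0652.

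Gclm, the modifier subunit of the same ligase, and Gss passed in none of the 6 comparisons. Gclm ranged from 29.5 to 35.2 normalized CPM and Gss from 212 to 245 over the 12 libraries. Gsr passed only between mutants: it was at 11.6, 10.01 and 9.75 in EPHA2-Q722 and 7.999, 7.77 and 7.26 in EPHA2-null (log2 -0.44 ± 0.11, adjusted p = 0.0085), and EPHA2-indel722 was above EPHA2-null by 0.36 ± 0.11 (adjusted p = 0.0421). The second of these calls was lost in 8 of 20 alternatives, among them DESeq2 (adjusted p = 0.0824), library totals (0.26, adjusted p = 0.117), and the fits without EPHA2-indel722 replicate 2 (0.38, adjusted p = 0.0948) or 3 (0.27, adjusted p = 0.198) or any one EPHA2-null library (0.33 to 0.39, adjusted p 0.0727 to 0.111). WT lay at 8.36, 7.36 and 9.14, and overlapped EPHA2-null.

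Hmox1, which degrades haem and is a standard NRF2 target, was lower in EPHA2-indel722 and EPHA2-null than in WT. It was at 1692, 1444 and 1633 normalized CPM in WT, 1642, 1951 and 2169 in EPHA2-Q722, 957, 1188 and 1263 in EPHA2-indel722, and 1219, 1211 and 1168 in EPHA2-null. The EPHA2-indel722 and EPHA2-null libraries were all below WT, and EPHA2-Q722 overlapped WT. The log2 fold change was -0.49 ± 0.11 in EPHA2-indel722 (adjusted p = 0.00639), -0.41 ± 0.11 in EPHA2-null (adjusted p = 0.0212) and 0.27 ± 0.11 in EPHA2-Q722 (adjusted p = 0.167). The widest gap was between mutants, EPHA2-indel722 against EPHA2-Q722 at -0.76 ± 0.11 (adjusted p = 0.000198). The EPHA2-null call was lost without WT replicate 1 (-0.37, adjusted p = 0.0757), WT replicate 3 (-0.40, adjusted p = 0.0752) or any one EPHA2-null library (-0.39 to -0.42, adjusted p 0.0566 to 0.106), and without EPHA2-Q722 replicate 1 the EPHA2-Q722 change of 0.37 passed (adjusted p = 0.0289).

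Nfe2l2 itself was the 1 member that fell in EPHA2-Q722. It was at 12.3, 10.9 and 12.6 normalized CPM in WT, 9.63, 8.21 and 9.60 in EPHA2-Q722, 12.03, 9.96 and 10.2 in EPHA2-indel722, and 12.03, 10.1 and 10.5 in EPHA2-null. EPHA2-Q722 libraries were below all of WT (log2 -0.39 ± 0.11, adjusted p = 0.0298), and the other genotypes overlapped WT. The call was lost without WT replicate 1 (-0.37, adjusted p = 0.0959), WT replicate 3 (-0.35, adjusted p = 0.144) or EPHA2-Q722 replicate 2 (-0.31, adjusted p = 0.15). Keap1, which targets NRF2 for degradation, passed in none of the 6 comparisons and ranged from 13.6 to 17.2 over the 12 libraries.

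Peroxide-removing enzymes that passed against WT with TMM factors all fell. With library totals none of these falls passed, as given below. Gpx1 was at 249, 254 and 266 normalized CPM in WT, 254, 252 and 229 in EPHA2-Q722, 201, 204 and 205 in EPHA2-indel722, and 211, 213 and 206 in EPHA2-null. EPHA2-indel722 and EPHA2-null libraries did not overlap with the other genotypes, and the log2 fold change was -0.34 ± 0.06 (adjusted p = 0.000205) and -0.29 ± 0.06 (adjusted p = 0.00108). Gpx4, at 76.0 to 93.3 over the 12 libraries, and Gpx8, a peroxidase of the endoplasmic reticulum, at 10.4 to 14.9, passed in none of the 6 comparisons, and 25.1% of the windows of Gpx4 also occur in a pseudogene.

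Cat, the catalase of peroxisomes, was at 36.5, 34.2 and 35.8 normalized CPM in WT, 33.3, 29.3 and 30.6 in EPHA2-Q722, 30.3, 25.1 and 23.9 in EPHA2-indel722, and 25.9, 28.5 and 31.6 in EPHA2-null. Every mutant library was below every WT library. The fall passed in EPHA2-indel722 (log2 -0.42 ± 0.09, adjusted p = 0.00168) and EPHA2-null (-0.31 ± 0.09, adjusted p = 0.0213) but not in EPHA2-Q722 (-0.19 ± 0.09, adjusted p = 0.218). The EPHA2-null call was lost without WT replicate 1 (-0.30, adjusted p = 0.0656), WT replicate 3 (-0.31, adjusted p = 0.06), EPHA2-null replicate 1 (-0.24, adjusted p = 0.118) or EPHA2-null replicate 2 (-0.30, adjusted p = 0.0718). The superoxide dismutases did not pass against WT: Sod1 (cytosolic) ranged from 98.8 to 122 and Sod2 (mitochondrial) from 59.5 to 71.8. Sod2 was highest in EPHA2-Q722, at 70.9, 71.8 and 70.0, and was lower than this in EPHA2-indel722 (-0.18 ± 0.06, adjusted p = 0.036) and EPHA2-null (-0.20 ± 0.06, adjusted p = 0.0136). The first of these Sod2 calls was lost in 9 of 21 alternatives, 5 of them fits without 1 library: EPHA2-Q722 replicate 1 (adjusted p = 0.0794) or 2 (0.0889), EPHA2-indel722 replicate 1 (0.0919) or 2 (-0.15, adjusted p = 0.18), or EPHA2-null replicate 2 (0.0513). The second was lost with library totals (-0.09, adjusted p = 0.391) and the classic exact test (adjusted p = 0.0588).

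Of the 6 peroxiredoxins and Srxn1, which restores over-oxidized peroxiredoxins, 1 fell in EPHA2-indel722 and 1 in EPHA2-null. Over all genes 6.37% and 6.22% fell in these genotypes, so these counts are not read as a result about the family. Prdx2, a cytosolic peroxiredoxin, was at 117, 118 and 125 normalized CPM in WT and 101.04, 102 and 95.6 in EPHA2-null (log2 -0.27 ± 0.06, adjusted p = 0.00308), with the EPHA2-null libraries below those of the other genotypes. Prdx3, the mitochondrial form, was at 14.0, 14.9 and 14.1 in WT and 10.5, 12.03 and 12.5 in EPHA2-indel722 (-0.30 ± 0.09, adjusted p = 0.0285). The Prdx3 call was lost without WT replicate 2 (-0.29, adjusted p = 0.0888), WT replicate 3 (-0.32, adjusted p = 0.0549), EPHA2-indel722 replicate 1 (-0.23, adjusted p = 0.163) or EPHA2-indel722 replicate 2 (-0.33, adjusted p = 0.054).

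Prdx1, another cytosolic peroxiredoxin, passed only between mutants. It was at 154, 149 and 156 normalized CPM in EPHA2-Q722, 152, 147 and 154 in EPHA2-indel722 and 130, 125 and 123.5 in EPHA2-null, with WT between them at 136, 136 and 140. EPHA2-null was below EPHA2-Q722 by -0.28 ± 0.05 (adjusted p = 0.000569) and below EPHA2-indel722, the log2 difference of EPHA2-indel722 from EPHA2-null being 0.26 ± 0.05 (adjusted p = 0.00171). With library totals these Prdx1 differences were -0.16 (adjusted p = 0.0975) and 0.16 (adjusted p = 0.139), and did not pass. Prdx4, Prdx5, Prdx6 and Srxn1 passed in none of the 6 comparisons, and Prdx6, which also reduces phospholipid peroxides, ranged from 20.1 to 23.8. For Prdx4 the change in EPHA2-indel722 was -0.24 (adjusted p = 0.104), and without EPHA2-indel722 replicate 3 it was -0.33 (adjusted p = 0.0323).

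**Figure D4:**
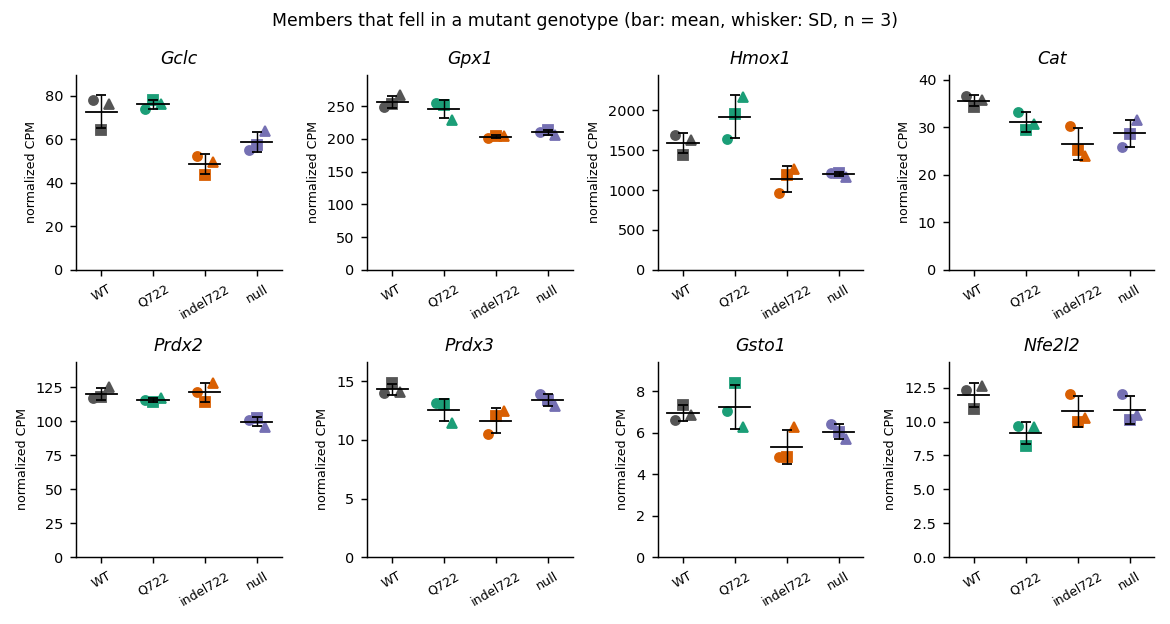
Normalized CPM of 8 members that fell in a mutant genotype, drawn with 1 point per library (circle, square and triangle for replicates 1, 2 and 3), the mean as a bar and the SD as a whisker (n = 3). Gclc, Gpx1, Hmox1 and Cat have all EPHA2-indel722 and EPHA2-null points below those of WT, Prdx2 is lower in EPHA2-null and Nfe2l2 in EPHA2-Q722.

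The thioredoxin and glutaredoxin branch, which reduces protein disulfides with NADPH or glutathione, did not pass against WT in any of its 8 genes. Txn1 ranged from 21.2 to 25.9 normalized CPM over the 12 libraries, Txn2 from 41.4 to 49.4 and Txnrd1 from 15.5 to 17.7. The summed level of the 8 genes was 178 ± 4.17 in WT, 180 ± 4.96 in EPHA2-Q722, 176 ± 9.72 in EPHA2-null and 185 ± 2.96 in EPHA2-indel722 (SD, n = 3). Glrx2, the mitochondrial glutaredoxin, differed between EPHA2-indel722, at 22.2, 22.4 and 22.6, and EPHA2-Q722, at 17.5, 18.5 and 18.7 (log2 0.30 ± 0.07, adjusted p = 0.00812). Without EPHA2-Q722 replicate 1 this was 0.26 (adjusted p = 0.0514).

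The mutant genotypes were also compared with each other, which asks how the edited alleles differ from one another and from the plasmid insertion of EPHA2-null, in which Epha2 RNA was still counted at 34.6 normalized CPM. EPHA2-indel722 against EPHA2-Q722 had 5 members higher and 5 lower, where 6.57% and 5.88% of all genes passed. EPHA2-null against EPHA2-Q722 had 6 higher and 9 lower, against 7.95% and 9.02%. EPHA2-indel722 against EPHA2-null had 5 higher and 4 lower, against 5.51% and 4.35%. With a fold of at least 2 these counts were 2 (0.922% of all genes), 3 (1.21%) and 2 (0.98%). Gstp1 was above EPHA2-Q722 by a log2 difference of 1.16 ± 0.06 in EPHA2-indel722 (adjusted p = 9.26e-12) and 1.22 ± 0.06 in EPHA2-null (adjusted p = 1.63e-12), and Gstp2 by 1.60 ± 0.10 (adjusted p = 1.64e-10) and 1.77 ± 0.10 (adjusted p = 1.38e-11). The members of EPHA2-indel722 above EPHA2-null were Slc7a11, Gsta4, Gsr, Prdx1 and Prdx2, and those below were Gclc, Gstm1, Gstm2 and Gstm6. Of these, Prdx2 did not pass with library totals (0.18, adjusted p = 0.0931), nor Gstm6 without EPHA2-indel722 replicate 1 (-0.37, adjusted p = 0.0531). In total 21 of the 41 members passed in none of the 6 comparisons.

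The direction of the smaller changes depended on scaling. When library totals replaced TMM factors, the median over all genes shifted to log2 0.15 in EPHA2-Q722, 0.28 in EPHA2-null and 0.17 in EPHA2-indel722, and that of the members to 0.13, 0.21 and 0.15. Then 7 members rose and 0 fell in EPHA2-Q722 (1163 and 134 of all genes), EPHA2-indel722 had 12 higher and 2 lower (2178 and 210), and EPHA2-null had 18 higher and 0 lower (4695 and 153). TMM factors gave 239 and 314, 584 and 553, and 432 and 540 of all genes in these genotypes. Each rise named above against WT passed under both scalings. The falls in EPHA2-null did not: Gclc was at -0.04, Gpx1 at -0.02, Cat at -0.04, Hmox1 at -0.14 and Prdx2 at 0.00. In EPHA2-indel722 Gclc and Hmox1 still fell, and Gpx1 (-0.17, adjusted p = 0.0712) and Cat (-0.25, adjusted p = 0.0894) did not pass. Prdx3 (-0.14, adjusted p = 0.262) and Gsto1 (-0.24, adjusted p = 0.155) did not pass there either, nor did Nfe2l2 in EPHA2-Q722 (-0.24, adjusted p = 0.158). The change of scaling moves all genes of a comparison by nearly the same amount. Members below the median of all genes therefore stay below it, which is no test of their falls.

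**Figure D5:**
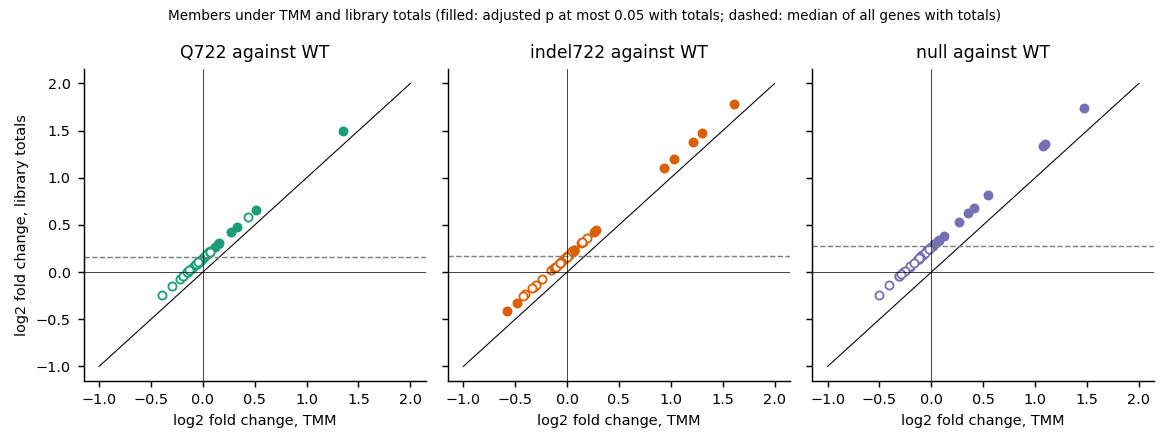
Log2 fold change against WT of the 41 members with TMM factors (x axis) and with library totals (y axis), 1 panel per mutant genotype, with the diagonal of equality and a dashed line at the median of all genes under library totals (0.15, 0.17 and 0.28). Filled points have an adjusted p of at most 0.05 under library totals, and all points lie above the diagonal.

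Other genes that work beside the members were read from lists chosen by function. Over all genes tested, the shares higher and lower were 4.98% and 6.22% for EPHA2-null, 6.73% and 6.37% for EPHA2-indel722, and 2.75% and 3.62% for EPHA2-Q722. Counts of 1 or 2 in these short lists lie near such shares, so the values below are those of single genes and no count is read as a result about a list. These genes were read with TMM factors only and not under the alternatives. With library totals the falls of members in EPHA2-null did not pass. NADPH is the reductant of glutathione and thioredoxin reductases. Of 8 genes of the pathways that supply it, 1 rose in EPHA2-Q722, 1 fell in EPHA2-indel722, and 2 rose and 1 fell in EPHA2-null. Tkt, transketolase, rose in EPHA2-Q722 (log2 0.34 ± 0.06, adjusted p = 0.000541) and G6pdx, glucose-6-phosphate dehydrogenase, in EPHA2-null (0.35 ± 0.08, adjusted p = 0.00544). Idh2, the mitochondrial NADP isocitrate dehydrogenase, fell in EPHA2-null (-0.40 ± 0.06, adjusted p = 3.06e-05) and EPHA2-indel722 (-0.24 ± 0.06, adjusted p = 0.00475).

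Of 13 genes of glutathione turnover and use, 2 rose in EPHA2-Q722, 2 rose and 1 fell in EPHA2-indel722 and 1 rose in EPHA2-null. Slc1a4, a neutral amino acid transporter, was at 27.6, 24.8 and 26.4 normalized CPM in WT, 29.5, 26.7 and 54.0 in EPHA2-Q722, 74.2, 66.8 and 62.8 in EPHA2-indel722, and 28.6, 26.8 and 29.3 in EPHA2-null. Like Slc7a11 it rose in EPHA2-indel722 (log2 1.37 ± 0.24, adjusted p = 0.00633), but in EPHA2-Q722 only replicate 3 stood apart from WT (0.49 ± 0.25, adjusted p = 0.349). Slc3a2, the partner chain of the Slc7a11 transporter, did not pass against WT, at 0.16 ± 0.05 in EPHA2-Q722 (adjusted p = 0.0666), 0.01 ± 0.05 in EPHA2-indel722 (adjusted p = 0.961) and -0.16 ± 0.05 in EPHA2-null (adjusted p = 0.0562). Glo1, which removes methylglyoxal with glutathione as cofactor, was at 139, 146 and 148 in EPHA2-Q722 against 94.2, 91.9 and 94.3 in WT (0.63 ± 0.06, adjusted p = 7.65e-08).

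Of 19 further targets and partners of NRF2, 1 rose and 1 fell in EPHA2-Q722, 3 rose in EPHA2-indel722, and 2 rose and 4 fell in EPHA2-null. Sqstm1, the autophagy receptor p62, which binds KEAP1, rose in all 3 genotypes: it was at 133, 116 and 135 normalized CPM in WT, 143, 174 and 188 in EPHA2-Q722, 212, 204 and 221 in EPHA2-indel722, and 232, 233 and 259 in EPHA2-null. Every mutant library exceeded every WT library, with log2 fold changes of 0.40 ± 0.08 (adjusted p = 0.00611), 0.73 ± 0.08 (adjusted p = 7.42e-06) and 0.91 ± 0.08 (adjusted p = 7.19e-07). Ftl1, ferritin light chain, rose in EPHA2-indel722 (0.39 ± 0.07, adjusted p = 0.000827), and Fth1, ferritin heavy chain, fell in EPHA2-null (-0.24 ± 0.06, adjusted p = 0.00538). Blvra, biliverdin reductase, which acts on the product of haem oxygenase, fell in EPHA2-Q722 (-0.62 ± 0.15, adjusted p = 0.0123).

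Of 17 genes of thiol repair, 1 rose and 1 fell in EPHA2-Q722, 1 rose and 1 fell in EPHA2-indel722, and 1 rose and 3 fell in EPHA2-null. The largest of these changes were Txndc12, a thioredoxin-fold protein of the endoplasmic reticulum, in EPHA2-null (log2 -0.52 ± 0.08, adjusted p = 5.29e-05) and Msrb1, a methionine sulfoxide reductase, in EPHA2-Q722 (0.52 ± 0.12, adjusted p = 0.00833). Cp, ceruloplasmin, was the 1 gene analysed of a list of 4 for metal binding and peroxide use. It fell in EPHA2-indel722 (-0.27 ± 0.06, adjusted p = 0.00562).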

How the data were processed

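Whole lens RNA from 12 samples (4 genotypes, 3 libraries each) was poly-A selected and sequenced as 101-base read pairs. Alignment to mm10 (STAR 2.5.3a), filtering (SAMtools 1.4.1) and gene-level read counting (HTSeq 0.11.0) were done by the authors. The annotation release and strand setting are not given in the sources used here, so reads of overlapping antisense genes and of near-identical copies cannot be told apart. The deposited table holds whole read counts and CPM scaled by the authors to each library's full total. Its log2 fold changes, average log2 CPM, p-values and adjusted p-values are the authors' own comparisons, which were not used. Each gene exceeds 3 CPM in at least 6 libraries (lowest sixth-highest value 3.01), so genes below this were not analysed here. All sample columns were used.

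The quasi-likelihood test of edgeR 4.0.16 (R 4.3.3; glmQLFit, glmQLFTest) was run on the deposited counts. A single model of genotype covered the 12 libraries, with TMM factors and 8 residual degrees of freedom, and p-values were adjusted by Benjamini-Hochberg over 8676 genes. TMM factors were 0.886 to 0.913 in WT, 0.982 to 1.04 in EPHA2-Q722, 1.06 to 1.12 in EPHA2-null and 0.945 to 1.06 in EPHA2-indel722. Levels are mean ± SD of 3 libraries, fold changes carry SE and a prior count of 0.125, and floors cover counting error only. P-values measure the spread between pools of lenses, since the labels do not say which animals or litters each pool came from. No libraries of a genotype agreed within sampling noise (chi-square per degree of freedom 12.4 to 108).

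Members were named where they passed in any comparison, were among the 10 highest in WT, or belonged to a set list of core genes, Gstp2 and its nearest 5 genes by correlation included. The symbol rule, the lists and the tests were chosen with earlier results of these data known. Alternatives were DESeq2 1.42.0, DESeq2 size factors, library totals, scaling without crystallin genes, a mean of at least 10 CPM, no filter, edgeR's classic exact test, fits of only the libraries compared, a replicate block and each library left out. Upstream sequences came from RefSeq (GRCm38.p6), gene positions from GENCODE vM21 (mm10).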

Additional observations from a re-analysis of the deposited data

How the results depend on the processing

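Of 521 repeats of passing member results against WT over the alternatives, 471 stayed past the threshold, 50 lost it and 0 reversed. Calls between mutants are not in these totals, and some of them were lost too, such as those given above for Sod2, Gsr and Gclc. With library totals, 7 members rose and 0 fell in EPHA2-Q722, 12 rose and 2 fell in EPHA2-indel722, and 18 rose and 0 fell in EPHA2-null. Over all genes these counts were 1163 and 134, 2178 and 210, and 4695 and 153. EPHA2-null against EPHA2-Q722 then had 4 members lower (334 of all genes). EPHA2-indel722 against EPHA2-null had 2 members higher and 7 lower (213 and 757 of all genes). Under the same totals 4 members that had not passed in EPHA2-null changed sign and passed: Gstm7 (log2 0.26, adjusted p = 0.0166), Sod1 (0.23, adjusted p = 0.0089), Sod2 (0.18, adjusted p = 0.0316) and Txnrd1 (0.27, adjusted p = 0.0181). With these totals the median of all genes in EPHA2-null moved as well, to log2 0.28, and which scaling lies closer to the RNA of the lens was not tested. DESeq2's Wald test left 0 members lower in EPHA2-Q722 (270 of all genes). Fitting only the libraries compared left 0 members higher and 0 beyond 2-fold there (203 and 61 of all genes). A mean of at least 10 CPM keeps 5383 genes. EPHA2-indel722 against EPHA2-null then had 3 members higher and 1 beyond 2-fold (332 and 41 of these genes).

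With each library left out in turn, the members higher, lower and beyond 2-fold ranged over 0 to 2, 0 to 1 and 0 to 1 in EPHA2-Q722, 6 to 6, 4 to 8 and 3 to 5 in EPHA2-indel722, and 5 to 6, 2 to 5 and 3 to 3 in EPHA2-null. Over all genes these were 159 to 261, 211 to 356 and 65 to 84 in EPHA2-Q722. In EPHA2-indel722 they were 369 to 679, 379 to 660 and 85 to 95, and in EPHA2-null 245 to 529, 406 to 605 and 66 to 77. Between mutants the ranges were 4 to 5, 3 to 6 and 2 to 2 for EPHA2-indel722 against EPHA2-Q722, 4 to 7, 9 to 9 and 3 to 4 for EPHA2-null against EPHA2-Q722, and 4 to 5, 2 to 4 and 2 to 2 for EPHA2-indel722 against EPHA2-null. The count of members lower in EPHA2-null was 2 without WT replicate 1, WT replicate 3, EPHA2-null replicate 1 or EPHA2-null replicate 2. In these fits 448, 437, 406 and 407 of all genes were lower.

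The replicate numbers only name the libraries: 1 of 18 same-numbered pairs had deviations correlated above 0.1 (range -0.149 to 0.219). A replicate block gave 5 members lower in EPHA2-indel722 (542 of all genes). It gave 4 higher for EPHA2-indel722 against EPHA2-null (495 of all genes), and changed no other count of members. Low counts limit the precision of the changes of some members. Gsta4 was at 29 to 135 reads per library, Gstk1 at 40 to 172 and Txnrd3 at 48 to 79.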

Other observations

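The 5 genes whose log2 normalized CPM correlated most closely with Gstp2 over the 12 libraries were Gstp1 (Pearson r = 0.992), Rgs8 (0.978), Dcdc2a (0.971), Gm42808 (0.967) and Dusp4 (0.963). The libraries share their genotypes and depth, so these values are descriptions, and reads shared with Gstp2 enter that of Gstp1. Rgs8, a regulator of G-protein signalling, was at 30.7, 28.1, 54.6 and 55.4 normalized CPM on average in WT, EPHA2-Q722, EPHA2-indel722 and EPHA2-null. Dcdc2a, a microtubule-binding protein, was at 1.46, 1.20, 7.94 and 7.71, and Dusp4, a phosphatase of MAP kinases, at 7.11, 4.16, 15.4 and 16.0. Gm42808 was at 2.51, 2.16, 6.50 and 6.51. In WT and EPHA2-Q722 both Dcdc2a and Gm42808 averaged below the 3 CPM that a gene had to exceed in at least 6 libraries. They were thus analysed mainly through the genotypes where Gstp2 is high, which favours a high correlation with it. All 5 lie in different places of the genome except the neighbours Gstp1 and Gstp2: Rgs8 on chromosome 1, Dcdc2a on 13, Gm42808 on 5 and Dusp4 on 8. Dusp4 differed from Gstp2 in that it passed in EPHA2-Q722 too, where it fell by 0.76 on the log2 scale (adjusted p = 0.00103).

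Within 250000 bases of Gsta4, C920006O11Rik moved the opposite way to Gsta4 in EPHA2-indel722, with a log2 fold change of -1.79 against WT (adjusted p = 0.0025). Psma5, a proteasome subunit next to the Gstm cluster, rose in EPHA2-indel722 (0.27, adjusted p = 0.0142) and EPHA2-null (0.32, adjusted p = 0.0047). Casp2, near Gstk1, fell in EPHA2-indel722 (-0.41, adjusted p = 0.0461).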
